A study of Mus musculus with 8 samples.

Results

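The nuclear-encoded subunits of oxidative phosphorylation were examined in C2C12 cells, a mouse myoblast line, after knockdown of Atad2. Members were taken by gene symbol: Nduf genes of the a, b, c, s and v series, Sdha to Sdhd, all Uqcr genes, Cyc1, Cox4 to Cox8 genes and all Atp5 genes. The rule found 86 of the 35976 genes of the table. They comprised 35 subunits of complex I, 4 of complex II, 9 of complex III, 20 of complex IV and 15 of complex V. The remaining 3 are not subunits: the pseudogene Uqcrh-ps1, and Atp5s and Atp5sl, whose current symbols are Dmac2l and Dmac2. Ndufa4 and Ndufa4l2 carry complex I names and were counted with complex IV, the complex to which Ndufa4 is now assigned.

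RNA was sequenced from 4 libraries of cells transfected with a non-targeting shRNA (control) and 4 libraries of cells transfected with an shRNA against Atad2, a chromatin-bound ATPase with a bromodomain. All RNA was taken 48 h after transfection, and no other allele or agent is named. The labels name a cell line, with no clone, and leave unsaid if separate cultures were used, so the p-values cover the spread between libraries, which may be technical. Depth in recovered reads was 61.4 to 73.0 Mreads (M for mega) without and 50.3 to 72.3 Mreads with the Atad2 shRNA. Atad2 itself was lower in all 4 Atad2 libraries, at 14.66, 14.74, 14.67 and 14.61 in the controls and 11.87, 11.77, 12.05 and 12.05 after knockdown (log2 fold change -2.73 ± 0.05 SE). One library, Atad2 replicate 3, stood apart on the second principal component of all genes, which held 8.29% of the variance. The counts over all members are also given without it, and those by complex, class and list are not. Of 8 myoblast markers, 4 rose (among them Myod1, 0.25 ± 0.04, and Des, 0.38 ± 0.03) and 3 fell: Pax7 (-3.27 ± 0.70), Myf5 (-1.28 ± 0.10) and Cdh15 (-0.96 ± 0.05). Their summed normalized counts, 621100 to 651400 in the controls and 657000 to 680700 after knockdown, are mostly those of Vim (log2 level 19.10 to 19.22), which was not called. Pax7, a satellite cell marker, had 19 to 41 reads in a control library and 0 to 12 after knockdown. Differentiated muscle markers were higher in the Atad2 group, with summed normalized counts of 4688 to 5861 against 707 to 928, and 4 of 5 tested markers rose. For fibroblast markers the sums were 5009 to 5159 against 2069 to 2156 (Thy1 and Lum had no reads). For macrophage markers they were 548 to 678 against 239 to 302, carried by Cd68, the 1 of 2 tested markers that rose (1.17 ± 0.11). Csf1r was not called, Ptprc and Itgam were below the level filter and Adgre1 had no reads. The part of these shifts in the subunit values was not tested, and in bulk RNA fewer cells of a type and less RNA per cell cannot be told apart.

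In oxidative phosphorylation, complexes I and II pass electrons from NADH and succinate to ubiquinone, complex III passes them on to cytochrome c and complex IV to oxygen. Complexes I, III and IV pump protons across the inner mitochondrial membrane, and complex V, the ATP synthase, uses their return to make ATP. Most subunits are encoded in the nucleus and imported, while the hydrophobic centre of complexes I, III, IV and V is encoded by mitochondrial DNA. Transcripts of the mitochondrial genome were not analysed here. Proliferating myoblasts also make ATP by glycolysis, and mitochondrial content is known to rise when they differentiate.

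The nuclear respiratory factors NRF1 and GABPA (an ETS factor) and the oestrogen-related receptors are known activators of many of these genes. RefSeq promoters (GRCm38.p6, 250 bases before to 50 after a start) were matched for 67 subunit genes. Motifs were searched on both strands: GCGCANGCG for NRF1, CCGGAAG for ETS factors, AAGATGGC for YY1, TCAAGGTCA for oestrogen-related receptors and GGGCGG for SP1. The NRF1 motif was found in 29.9% of the subunit genes, against 7.03% of all genes with a promoter and 17.6% of those with a mean log2 level above 9. The YY1 motif was found in 14.9%, against 3.19% and 6.10%. The ETS motif was found in 23.9%, against 9.93% of all genes and 22.9% of those with a level above 9, and the SP1 motif was found in 40.3%, against 73.5% of those genes and 38.2% of all genes. The receptor motif was found in 2 subunit genes, Atp5g3 and Sdhd. That is 2.99%, against 0.466% of all genes and 0.283% of those with a level above 9. Both genes were higher after knockdown, and whether the motif had a part in this was not tested. The NRF1 motif lay in 4 of 9 matched genes that were higher, 5 of 21 that were lower and 11 of 34 that were not called. The subunits so called numbered 16, 22 and 38, so relatively more of the rises had no matched promoter. These shares may therefore not be comparable.

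Parts of 3 promoters are shown because they belong to the pair of complex IV genes that fell most clearly and to the ATP synthase gene that rose most. Capitals mark NRF1 motifs in Cox6a1 and the receptor motif in Atp5g3. All 3 genes lie on the minus strand, and each sequence is printed 5′ to 3′ along the gene, restricted to bases outside annotated exons.
Cox8a, chr19:7217617-7217866: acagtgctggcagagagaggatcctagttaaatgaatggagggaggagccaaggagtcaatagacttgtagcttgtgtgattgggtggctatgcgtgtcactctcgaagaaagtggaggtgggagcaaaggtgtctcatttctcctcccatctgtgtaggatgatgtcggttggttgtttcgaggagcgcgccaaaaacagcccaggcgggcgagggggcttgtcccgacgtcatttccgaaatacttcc
Cox6a1, chr5:115348982-115349129: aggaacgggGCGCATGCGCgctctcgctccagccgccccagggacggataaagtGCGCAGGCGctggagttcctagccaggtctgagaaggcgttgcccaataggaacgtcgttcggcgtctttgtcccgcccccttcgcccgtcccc
Atp5g3, chr2:73911327-73911576: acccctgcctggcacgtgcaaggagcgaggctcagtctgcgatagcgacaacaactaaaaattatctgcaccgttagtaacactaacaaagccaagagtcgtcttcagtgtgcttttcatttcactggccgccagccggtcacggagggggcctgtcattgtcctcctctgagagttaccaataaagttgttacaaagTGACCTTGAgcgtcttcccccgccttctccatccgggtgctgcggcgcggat
No whole NRF1, ETS, YY1 or receptor motif occurred in the Cox8a stretch, and 2 ETS matches of the searched window crossed its start or lay after it. In Cox6a1, overlapping matches began 162 and 161 bases before the start and another began 117 before it. In Atp5g3, the receptor match began 52 bases before the start, on the opposite strand, and an NRF1 match lay at or after it. The Atp5g3 window lies inside the gene's annotated span, upstream of one of its starts. A match is a description of letters, and binding was not measured.

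Of the 86 members, 78 had a mean log2 value above 3 and were tested. Levels are log2(normalized count + 1), which understates fold changes of weak genes, and fold changes are Atad2 minus control ± SE from limma, with Benjamini-Hochberg adjustment over 14703 genes. In all, 16 members rose and 23 fell at an adjusted p under 0.05. That is 20.51% and 29.49% of the tested members, against 30.8% and 29.6% of all genes tested. Either direction was called for 39 of the 78 members and 60.4% of all genes. Among genes with a mean log2 level above 9, where 76 of the 78 lie, 41.9% rose and 25.2% fell, and of those 76 members 16 rose and 22 fell. The members' median log2 fold change was -0.01, and that of all genes tested was -0.01. No member passed with a change of at least 2-fold, which 11.1% of all genes did. Among the 9597 genes with a level above 9, only 258 did. The groups did not overlap for 12 higher and 20 lower members, against 53.5% of all genes in either direction. Without Atad2 replicate 3, 17 members rose and 21 fell.

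The direction of the smaller changes depended on the scaling between libraries. With quantile normalization 5 members rose and 36 fell, where 28.8% and 27.6% of all genes did. With cyclic loess the counts were 5 and 37 (27.9% and 28.2% of all genes), and with limma-voom on the recovered reads 7 and 40 (22.5% and 37.7%). Of the 16 rises, 5 held under each of the 19 alternative fits: Atp5g3, Cyc1, Ndufa6, Ndufa7 and Sdhd. Of the 23 falls, 15 held under each: Atp5d, Atp5k, Cox5b, Cox6a1, Cox7b, Cox8a, Ndufa1, Ndufa3, Ndufa11, Ndufa13, Ndufb3, Ndufb6, Ndufv3, Uqcr10 and Uqcrq. Under the other scalings alone, 22 of the 23 falls and 5 of the 16 rises kept their call. The median of genes with a level above 9 was 0.06 as deposited and 0.01 with quantile normalization, and the members' median moved from -0.01 to -0.09.

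**Figure D1:**
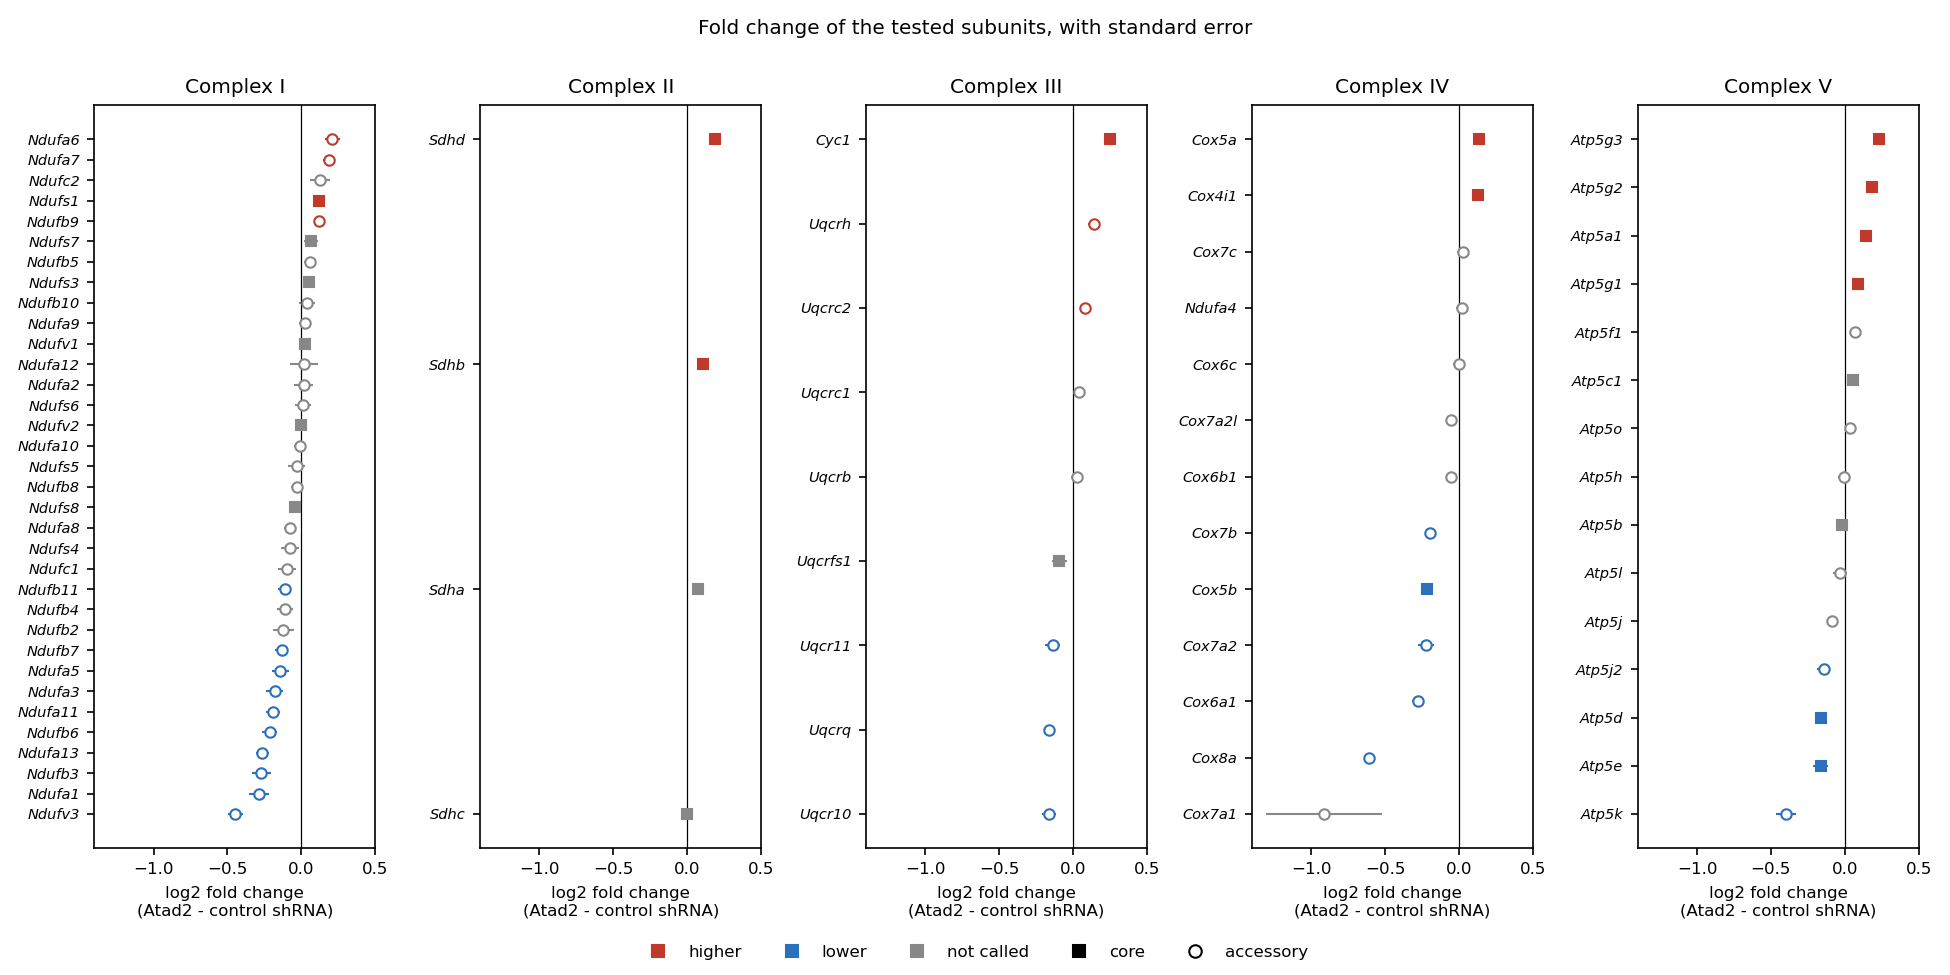
Log2 fold change (Atad2 minus control shRNA, bars show SE, n = 4 libraries per group) of 75 of the 76 tested subunits, by complex; filled squares are the subunits listed as core and open circles the accessory ones. Red and blue mark genes called higher and lower at an adjusted p under 0.05. Cox8a is the lowest called subunit and Cyc1 the highest.

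**Figure D2:**
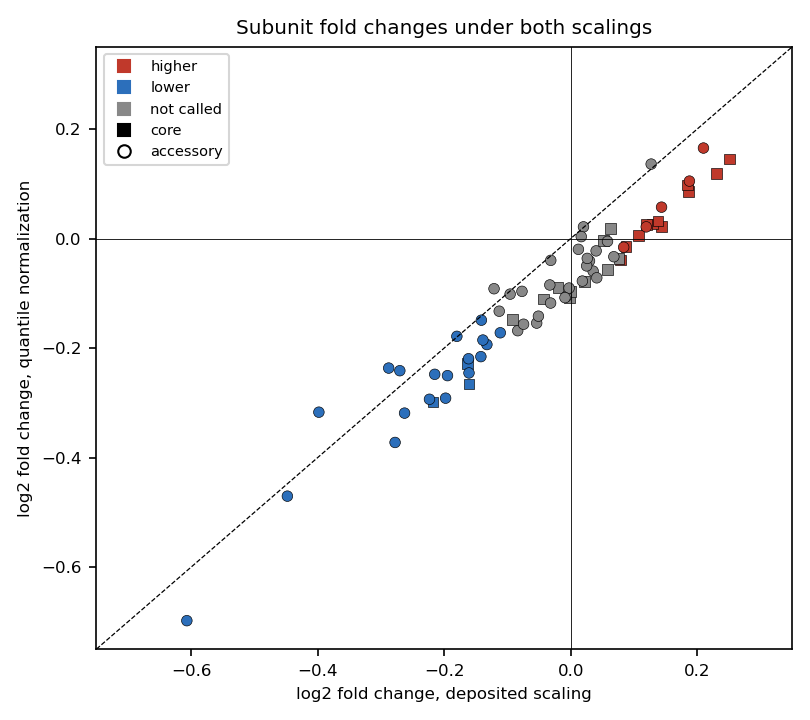
Log2 fold changes as deposited (x axis) and after quantile normalization (y axis), 1 point per tested subunit, coloured by the call on the deposited scale; the dashed line marks equal values and Cox7a1 (-0.91 and -0.38) lies outside the axes. Most points sit below the line, and the falls stay below 0 while several rises approach 0.

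Complex I, the NADH dehydrogenase, had 5 subunits higher (14.29%), 10 lower (28.57%) and 20 not called. Among all genes tested 30.8% rose and 29.6% fell, and among those with a level above 9, 41.9% and 25.2%. The share of falls in the complex was thus near those of all genes, and the share of rises was lower. The median log2 fold change of the complex was -0.03. All 10 falls were in accessory subunits, which surround the catalytic centre and act in assembly and stability. Of the 7 core subunits, which carry the flavin and the iron-sulphur clusters, 2 rose, Ndufs1 among them, and none fell. With quantile normalization or cyclic loess 2 subunits of the complex rose and 16 fell, and with voom 2 and 19, and of the core subunits none then rose and 2 fell.

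Ndufv3, an accessory subunit of the NADH-binding module (chromosome 17, 31520115 to 31531326), fell most in complex I. Its log2 level was 11.16, 11.09, 11.11 and 11.14 in the controls and 10.63, 10.60, 10.71 and 10.77 after knockdown. Every Atad2 library was below every control, and the gene fell by 26.7% (-0.45 ± 0.05, limma adjusted p = 1.42e-07). Ndufa1, an X-linked subunit of the membrane arm, stood at 10.10, 10.11, 9.95 and 10.02 in the controls and at 9.70, 9.82, 9.64 and 9.86 after knockdown (-0.29 ± 0.07, limma adjusted p = 0.00129). The groups did not overlap. Ndufb3, in the membrane arm, was at 10.35, 10.30, 10.20 and 10.32 against 9.93, 9.96, 10.03 and 10.16 (-0.27 ± 0.06). Ndufa13, also known as GRIM-19, was at 11.58, 11.46, 11.43 and 11.57 against 11.29, 11.22, 11.20 and 11.30 (-0.26 ± 0.05). Both genes were separated between the groups, and Tssk6 on the opposite strand shares exonic sequence with Ndufa13. The other falls, in Ndufb6, Ndufa11, Ndufa3, Ndufa5, Ndufb7 and Ndufb11, lay between -0.22 and -0.11. The 3 X-linked members, Ndufa1, Ndufb11 and Cox7b, all fell, while of 286 genes on chromosome X with a level above 9, 40.2% rose and 28.0% fell.

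Among the rises in complex I, Ndufa6 and Ndufa7 held in every alternative fit. Ndufa6, an accessory subunit of the LYR motif family, was at 10.98, 11.17, 11.11 and 11.14 in the controls and 11.33, 11.34, 11.35 and 11.23 after knockdown (0.21 ± 0.05, limma adjusted p = 0.000997). Ndufa7 was at 11.97, 11.97, 11.95 and 12.11 against 12.17, 12.25, 12.13 and 12.21 (0.19 ± 0.04, limma adjusted p = 0.00057). In both genes the groups were separate, narrowly in Ndufa7. Ndufb9 rose by 0.12 ± 0.03 and lost its call with quantile normalization (0.02). Ndufs1, the largest iron-sulphur subunit, rose by 0.12 ± 0.04 with overlapping groups, and stood at 0.03 under quantile normalization, not called. The core genes Ndufs3, Ndufs7, Ndufs8, Ndufv1 and Ndufv2, had fold changes of 0.05, 0.06, -0.04, 0.02 and -0.00225, none called. Ndufs8 and Ndufv2 were called lower with quantile normalization, at -0.11 each.

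Complex II, succinate dehydrogenase, is also an enzyme of the TCA cycle and has 4 subunits, all nuclear. Of these, 2 rose, none fell and 2 were not called, where 41.9% of all genes with a level above 9 rose and 25.2% fell. The median log2 fold change of the complex was 0.09. The median was -0.02 with quantile normalization, and 1 rose and 1 fell with quantile normalization, cyclic loess and voom alike. Sdhd, a membrane anchor (chromosome 9, 50596340 to 50603849), was at 12.17, 12.16, 12.13 and 12.29 in the controls and 12.38, 12.42, 12.34 and 12.37 after knockdown. The groups were separate, with a fold change of 0.19 ± 0.04 (limma adjusted p = 0.000346) and of 0.10 with quantile normalization. Sdhb, the iron-sulphur subunit (chromosome 4, 140961271 to 140979198), was at 12.38, 12.45, 12.40 and 12.40 against 12.54, 12.51, 12.48 and 12.52 (0.11 ± 0.03, limma adjusted p = 0.00923). Its groups were separate too, but its fold change was 0.01 with quantile normalization, not called. The flavoprotein gene Sdha had 0.08 ± 0.03, adjusted p = 0.059 by limma, at 13.79, 13.85, 13.73 and 13.80 against 13.90, 13.87, 13.79 and 13.91. The second anchor, Sdhc, had 0.00 ± 0.03, at 12.77, 12.77, 12.72 and 12.80 against 12.77, 12.80, 12.72 and 12.77, and was called lower with quantile normalization (-0.10). Whether the fold changes of the anchors differed was not tested.

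Complex III, the cytochrome bc1 complex, had 3 subunits higher (33.33%), 3 lower (33.33%) and 3 not called. Among all genes tested 30.8% rose and 29.6% fell, and among those with a level above 9, 41.9% and 25.2%. The median of the complex was 0.03 (-0.07 with quantile normalization). Under quantile normalization, cyclic loess and voom alike, 1 rose and 4 fell. Cyc1, the cytochrome c1 that hands electrons to cytochrome c, had the largest rise of any called member. It was at 13.12, 13.05, 13.04 and 13.12 in the controls and 13.36, 13.36, 13.28 and 13.33 after knockdown. Every Atad2 library lay above every control (0.25 ± 0.03, 19.0% higher, limma adjusted p = 1.56e-06). The other core gene, the Rieske protein gene Uqcrfs1, was at -0.09 ± 0.05 and not called, and was called lower with quantile normalization (-0.15). Uqcrh, the hinge protein gene, rose by 0.14 ± 0.04 and Uqcrc2 by 0.08 ± 0.03, and neither was called with quantile normalization (0.06 and -0.02). The falls were in small subunits. Uqcrq was at 12.28, 12.23, 12.24 and 12.30 against 12.11, 12.08, 12.09 and 12.12 (-0.16 ± 0.04). Uqcr10 was at 11.58, 11.58, 11.47 and 11.66 against 11.47, 11.44, 11.36 and 11.38 (-0.16 ± 0.05). For both, the Atad2 values lay below all controls, narrowly in Uqcr10. Uqcr11 fell by 0.14 ± 0.05 with overlapping groups, and Uqcrb and Uqcrc1 were not called (0.03 and 0.04).

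**Figure D3:**
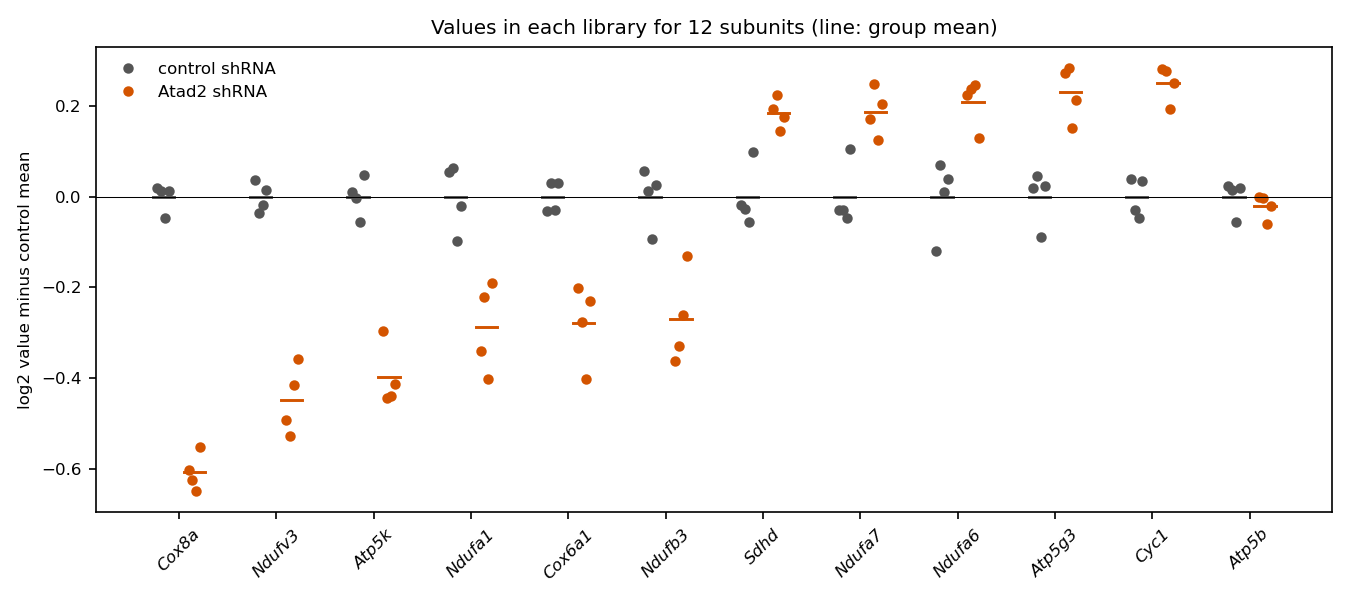
Log2 value in each library minus the mean of the 4 control libraries, for 12 subunits chosen after their values were seen; grey points are control and orange points Atad2 libraries, with lines at the group means. The Atad2 points lie apart from the controls for the first 11 genes and within the control range or at its edge for Atp5b.

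Complex IV, cytochrome c oxidase, held the largest fall among the called subunits. Of its 20 genes, 13 were tested, with 2 higher (15.38%), 5 lower (38.46%) and 6 not called. Among all genes tested 30.8% rose and 29.6% fell, and among those with a level above 9, 41.9% and 25.2%. The median of the complex was -0.05 (-0.15 with quantile normalization). None of its subunits rose and 8 fell with quantile normalization, cyclic loess and voom alike. Cox8a (chromosome 19, 7215158 to 7217616), the ubiquitous isoform of the smallest subunit, was at 12.84, 12.84, 12.78 and 12.84 in the controls and 12.22, 12.20, 12.18 and 12.27 after knockdown. The gap between the groups was wider than the spread within either of them. It fell by 34.3%, a log2 fold change of -0.61 ± 0.03 (limma adjusted p = 3.95e-12), on 7279 to 8620 control reads and 3595 to 5230 reads after knockdown. Cox6a1, the ubiquitous isoform of subunit VIa (chromosome 5, 115345652 to 115348958), was at 12.62, 12.69, 12.63 and 12.69 against 12.45, 12.38, 12.25 and 12.42 (-0.28 ± 0.04, limma adjusted p = 6.38e-06). Cox7a2 was at 11.91, 11.88, 11.72 and 11.96 against 11.66, 11.70, 11.51 and 11.71 (-0.22 ± 0.05). Cox7b was at 12.46, 12.50, 12.44 and 12.43 against 12.26, 12.29, 12.27 and 12.21 (-0.20 ± 0.03). In all 3 the groups were separate, narrowly in Cox7a2. These subunits lie around the mitochondrially encoded catalytic core.

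The list called core here holds for complex IV the nuclear subunits Cox4i1, Cox5a and Cox5b, since the catalytic subunits are mitochondrial. Cox5b, a zinc-binding subunit, was at 12.21, 12.09, 12.14 and 12.24 against 12.02, 11.92, 11.91 and 11.96 (-0.22 ± 0.04, limma adjusted p = 0.000128). Cox5a was at 12.45, 12.43, 12.43 and 12.47 against 12.60, 12.62, 12.54 and 12.56 (0.14 ± 0.03). Cox4i1, the regulatory subunit IV in its ubiquitous isoform, was at 13.25, 13.18, 13.20 and 13.27 against 13.36, 13.39, 13.27 and 13.40 (0.13 ± 0.04). Cox5a and Cox5b were separated between groups in opposite directions, and Cox4i1 overlapped narrowly. The rises of Cox5a and Cox4i1 were not called with quantile normalization (0.03 each). Cox6b1, Cox6c, Cox7a2l, Cox7c and Ndufa4 had fold changes between -0.05 and 0.03, none called. With quantile normalization Cox6b1 (-0.15), Cox7a2l (-0.14) and Cox6c (-0.09) were called lower, and Cox7c and Ndufa4 were not called.

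Tissue-restricted isoforms of complex IV were near the limit of detection. Cox7a1, the heart and muscle isoform of subunit VIIa, was at 5.00, 4.96, 4.98 and 5.16 in the controls and 4.198, 3.26, 4.04 and 4.96 after knockdown. The groups were separate, narrowly for Atad2 replicate 4, on 30 to 41 and 9 to 26 reads per library. Its fold change of -0.91 ± 0.39 missed the threshold (limma adjusted p = 0.0503). It was called lower in 6 of 18 alternative fits, where the adjusted p by limma ranged from 0.0138 to 0.429, and was -0.38 with quantile normalization, not called. The genes below the level filter were Cox4i2, Cox6a2, Cox6b2, Cox7b2, Cox8b, Cox8c, Ndufa4l2 and the pseudogene Uqcrh-ps1. Cox8c had no reads in any library, which allows up to 0.0411 to 0.0596 RPM (3 reads of a library's total, counting error only). Cox7b2 had 7 to 29 reads in the control libraries and 0 to 1 in the Atad2 libraries, and was not tested. The others had at most 17 reads in any library, with both groups overlapping. Cox6a2 and Cox8b, the isoforms of contractile muscle, had at most 6 and 8 reads per library, also in the Atad2 group where the differentiated muscle markers were higher.

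Complex V, the ATP synthase, had 4 subunits higher (26.67%), 4 lower (26.67%) and 7 not called. Among all genes tested 30.8% rose and 29.6% fell, and among those with a level above 9, 41.9% and 25.2%. The median of the complex was -0.01 (-0.08 with quantile normalization). With quantile normalization or cyclic loess 1 of its subunits rose and 7 fell, and with voom 3 and 7. The 3 genes for subunit c, which forms the rotor ring and is the same mature protein from each, all rose on the deposited scale. Atp5g3 (chromosome 2, 73908447 to 73912464) was at 13.57, 13.60, 13.46 and 13.57 in the controls and 13.82, 13.83, 13.70 and 13.76 after knockdown. Its groups were separate (0.23 ± 0.04, limma adjusted p = 1.51e-05). Atp5g2 was at 12.78, 12.72, 12.75 and 12.72 against 13.03, 12.90, 12.82 and 12.96 (0.19 ± 0.04). Atp5g1 was at 12.42, 12.47, 12.37 and 12.46 against 12.57, 12.51, 12.44 and 12.54 (0.09 ± 0.04, limma adjusted p = 0.0476). With quantile normalization the fold changes were 0.12, 0.09 and -0.01, and only that of Atp5g3 was called.

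In the catalytic head, Atp5a1 (subunit alpha) was at 14.98, 15.01, 14.94 and 15.04 against 15.14, 15.14, 15.11 and 15.15 (0.14 ± 0.03), with separate groups. Haus1 on the opposite strand shares exonic sequence with it, and its fold change was 0.02 with quantile normalization, not called. Atp5b (subunit beta), the member with the most reads, was at 16.44, 16.43, 16.36 and 16.43 against 16.41, 16.41, 16.35 and 16.39 (-0.02 ± 0.03), not called, with overlapping groups. It was called lower with quantile normalization (-0.09). Atp5c1 (gamma) had 0.06 ± 0.03, not called. The remaining central-stalk genes fell: Atp5d (delta) was at 13.11, 13.13, 13.12 and 13.18 against 13.04, 12.95, 12.89 and 13.03 (-0.16 ± 0.04), and Atp5e (epsilon) by 0.16 ± 0.05. Atp5d was separated between groups and Atp5e was not. Among accessory subunits, Atp5k, the subunit e of the membrane part that holds ATP synthase dimers (chromosome 5, 108433246 to 108434399), fell most. It was at 9.89, 9.88, 9.83 and 9.93 against 9.59, 9.44, 9.44 and 9.47 (-0.40 ± 0.07, limma adjusted p = 4.28e-05). Every Atad2 value was below every control value. Atp5j2 fell by 0.14 ± 0.04, and Atp5j, Atp5l, Atp5h, Atp5o and Atp5f1 were not called (-0.08 to 0.07). Atp5j and Atp5h were called lower with quantile normalization (-0.17 and -0.11). Atp5j shares exonic sequence with Gabpa on the opposite strand.

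Of the members that are no subunits, Atp5s was at 7.69, 7.84, 8.30 and 8.00 in the controls and 7.19, 7.26, 7.05 and 7.55 after knockdown (-0.69 ± 0.16, limma adjusted p = 0.000805). The groups were separate, and its fold change was -0.35 with quantile normalization, adjusted p = 0.069 by limma. Atp5sl had -0.02 ± 0.09 and was not called.

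All of complex II was counted as core, and in complex V the subunit c genes with Atp5a1, Atp5b, Atp5c1, Atp5d and Atp5e. Of 24 core genes 11 rose (45.83%) and 3 fell (12.5%), with a median log2 fold change of 0.07. Of 52 tested accessory genes 5 rose (9.615%) and 19 fell (36.54%), with a median of -0.06. Among all genes with a level above 9, 41.9% rose and 25.2% fell, with a median of 0.06. The share of core rises and the core median were near those of such genes. The balance among core genes turned under 3 other scalings: with quantile normalization or cyclic loess 3 core genes rose and 8 fell, and with voom 5 and 8. Accessory genes then numbered 2 higher and 28 lower, and with voom 2 and 31. Of all genes with a level above 9, 33.2% rose and 31.1% fell with quantile normalization, and 30.1% and 35.3% with voom. The mean over core genes minus the mean over accessory genes, each relative to the controls, was 0.00, 0.01, 0.01 and -0.02 in the control libraries and 0.15, 0.17, 0.14 and 0.12 in the Atad2 libraries. All 4 Atad2 libraries lay above all controls. The same held within complexes I, III, IV and V taken singly, where the Atad2 means were 0.11, 0.10, 0.24 and 0.13. Separate groups were common in these data, at 53.5% of all single genes tested, and the complexes are parts of the same score. In complex III the core genes are only Cyc1 (0.25) and Uqcrfs1 (-0.09, not called), which moved apart. In complex IV the 10 accessory genes include Cox7a1 (-0.91, not called) and Cox8a (-0.61), and the difference without them was not computed. With quantile normalization the difference was 0.08 to 0.12 in the Atad2 libraries against -0.02 to 0.02 in the controls, while the core median became -0.03 and the accessory median -0.11. No p-value is given for this score, which was looked at with earlier results of these data known. The classes also differed in other ways whose part was not tested: core genes had a median log2 level of 12.7 and a median transcript of 1154 bases, accessory genes 11.6 and 625 bases. Of 48 members with a level above 9 and a transcript under 1000 bases, 9 rose and 19 fell, and of 26 with longer transcripts 7 rose and 3 fell. With quantile normalization or cyclic loess the counts were 3 and 27 for the shorter and 2 and 9 for the longer, and with voom 4 and 28, and 3 and 10. Among all protein-coding genes with a level above 9, 37.9% of those under 1000 bases rose and 24.6% fell, and 42.6% and 24.8% of the longer ones.

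**Figure D4:**
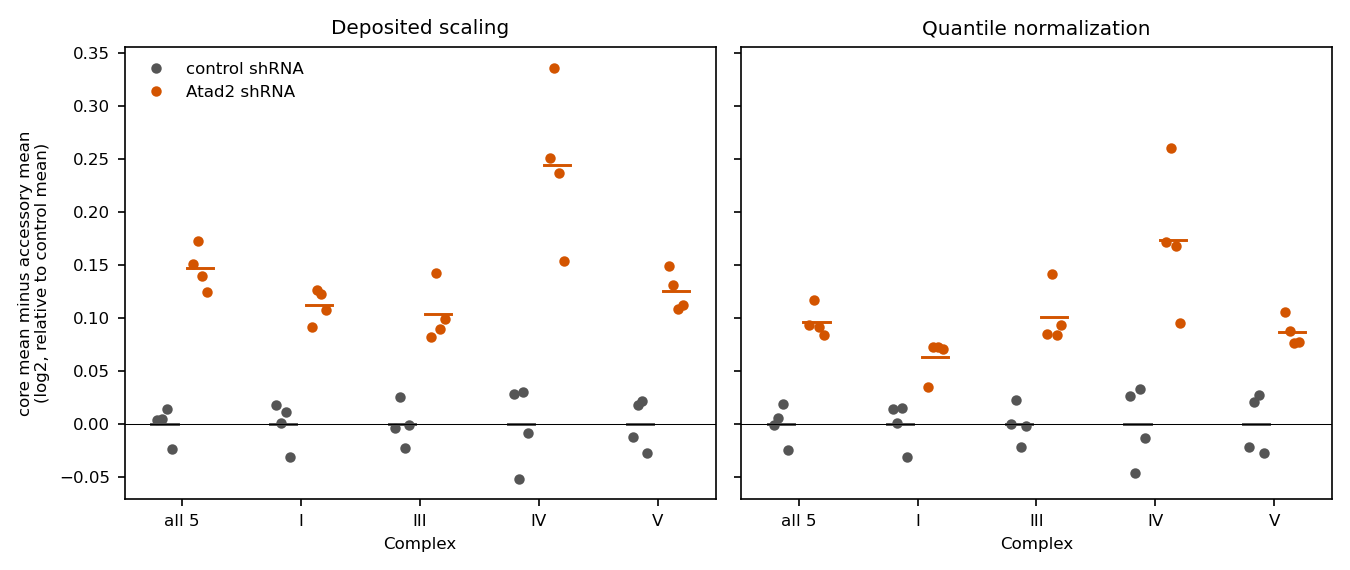
Mean log2 value of core subunits minus that of accessory subunits in each library, relative to the control mean, for the 5 complexes together and for complexes with both classes; grey points are control and orange points Atad2 libraries, with lines at the group means. The left panel uses the deposited scaling and the right panel quantile normalization, and the Atad2 points lie above the controls in every column of both panels.

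Levels can be compared between genes only per length of transcript. Per kilobase of a representative transcript, Atp5b was the highest of 75 subunits in the controls (45568 ± 1180 normalized counts per kilobase, SD, n = 4), followed by Atp5g3 (16808 ± 683) and Ndufa4 (15596 ± 661). The values of Ndufa4 and Atp5g2 (15520 ± 312) differed by less than their spread. The subunit median was 3087 for complex I, 4276 for complex II, 5727 for complex III, 8224 for complex IV and 8473 for complex V. In complex II, Sdha stood at 4895, Sdhb at 4754, Sdhd at 3798 and Sdhc at 2192 normalized counts per kilobase in the controls. Cox8a was the 6th of 75, at 13184 ± 279 in the controls and 8657 ± 250 after knockdown. Among the subunit c genes, Atp5g1 stood at 7979 in the controls.

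Isoforms of the same subunit, and the related genes Cox7a2l and Cox7a2, were compared as log2 ratios within each library. Of 10 planned pairs, 5 had both members above the filter. Atp5g1 over Atp5g3 was -1.15, -1.13, -1.09 and -1.11 in the controls and -1.26, -1.32, -1.26 and -1.22 after knockdown. The groups did not overlap, and the ratio differed by -0.14 ± 0.02 SE (exact two-sided permutation p = 0.02857, the smallest that 4 against 4 libraries can give, 0.0952 adjusted over the 5 pairs). For Atp5g1 over Atp5g2 the difference was -0.10 ± 0.04 and for Atp5g2 over Atp5g3 -0.04 ± 0.05. For Cox7a2l over Cox7a2 it was 0.17 ± 0.07 and for Cox7a1 over Cox7a2 -0.69 ± 0.35. These 4 overlapped between the groups, with exact two-sided permutation p = 0.0571, 0.371, 0.0571 and 0.114, and no pair passed the adjustment.

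Genes that build the complexes did not move in 1 direction. Of 49 tested assembly factors, 10 rose and 14 fell (20.41% and 28.57%, against 30.8% and 29.6% of all genes). The counts were 14 and 8 with quantile normalization, 13 and 9 with cyclic loess, and 6 and 19 with voom. For complex I, Timmdc1 (0.29 ± 0.05), Ndufaf4 (0.28 ± 0.07) and Foxred1 (0.20 ± 0.07) rose and Ndufaf3 (-0.63 ± 0.11) and Ndufaf7 (-0.30 ± 0.08) fell, with 10 of 15 not called. For complex II, 3 of 4 factors fell on the deposited scale, Sdhaf4 (-0.31 ± 0.09), Sdhaf3 (-0.61 ± 0.20) and Sdhaf1 (-0.38 ± 0.14), but none was called with quantile normalization. For complex IV, 5 of 20 rose and 6 fell. Coa5 was at 13.01, 13.03, 13.04 and 13.08 in the controls and 12.70, 12.69, 12.67 and 12.64 after knockdown (-0.36 ± 0.03). Cox20, a chaperone of the mitochondrially encoded COX2, fell by 0.54 ± 0.08, and Pet100 by 0.62 ± 0.12. Lrpprc, which stabilises mitochondrial messenger RNAs, rose by 0.26 ± 0.03, and the copper chaperones Sco1 and Sco2 rose by 0.30 ± 0.06 and 0.53 ± 0.12. For complex III, Uqcc2 rose (0.15 ± 0.04), and Uqcc3 (-0.33 ± 0.12) and Ttc19 (-0.13 ± 0.05) fell. For complex V, Atpaf2 rose (0.25 ± 0.05) and Atpaf1 fell (-0.32 ± 0.09). With quantile normalization Ttc19 and Atpaf2 kept their call, while Uqcc2 (0.07), Uqcc3 (-0.02) and Atpaf1 (-0.19) were not called (limma adjusted p = 0.197, 0.886 and 0.0811).

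Among 9 tested genes of supercomplexes and cristae, 4 rose (44.44%) and 2 fell (22.22%). These shares were near the 41.9% and 25.2% of genes with a level above 9. The rises included the prohibitins Phb (0.31 ± 0.04) and Phb2 (0.31 ± 0.03) and the fusion GTPase gene Opa1 (0.10 ± 0.03). The 2 falls were in Higd2a (-0.63 ± 0.07), a factor of complex IV and supercomplex assembly, and Chchd6 (-0.27 ± 0.07). With quantile normalization, cyclic loess and voom alike, 2 of the 9 rose and 3 fell, and Opa1 stood at 0.0089 with quantile normalization, not called (limma adjusted p = 0.835). Higd2a was at 10.17, 10.13, 10.16 and 10.20 against 9.52, 9.44, 9.59 and 9.61, with separate groups. Among 14 carriers and subunits outside the rule, mainly genes of coenzyme Q synthesis, 3 rose (Coq9, Pdss1 and Coq7, 0.18 to 0.26) and 3 fell (2010107E04Rik, Coq4 and Pdss2, -0.25 to -0.19). That is 21.43% higher and 21.43% lower, against 30.8% and 29.6% of all genes tested. With quantile normalization Coq4 and Pdss2 were not called.

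Of 13 TCA cycle genes, 9 rose and 2 fell on the deposited scale, with a median of 0.11, against 30.8% and 29.6% of all genes and 41.9% and 25.2% of those with a level above 9. With quantile normalization or cyclic loess 3 rose and 3 fell, and with voom 5 and 3. Dlst was at 13.84, 13.81, 13.78 and 13.84 in the controls and 14.11, 14.14, 14.05 and 14.03 after knockdown (0.27 ± 0.03). Dld rose by 0.24 ± 0.04, and Suclg2 (-0.22 ± 0.05) and Ogdh (-0.08 ± 0.03) fell. Among 10 transport genes of the mitochondrial membranes, 4 rose (40%) and 2 fell (20%), near the 41.9% and 25.2% of genes with a level above 9. With quantile normalization, cyclic loess and voom alike, 3 of the 10 rose and 4 fell. The ATP/ADP carriers changed in opposite directions. Slc25a5 was at 14.46, 14.51, 14.42 and 14.45 in the controls and 15.09, 15.10, 15.002 and 14.99 after knockdown (0.58 ± 0.03, limma adjusted p = 2.85e-12). Slc25a4, the muscle and heart isoform, was at 14.45, 14.47, 14.31 and 14.43 against 14.02, 14.08, 13.95 and 14.08 (-0.38 ± 0.04, limma adjusted p = 2.46e-08). Both genes were separated between the groups, and both kept their direction and call with quantile normalization. The phosphate carrier gene Slc25a3 and the porin gene Vdac2 rose by 0.21 ± 0.03 each, and Mpc1 of the pyruvate carrier fell by 0.47 ± 0.08.

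Of 14 tested regulators of respiratory genes, 7 rose and 3 fell (50% and 21.43%, against 30.8% and 29.6% of all genes and 41.9% and 25.2% of those with a level above 9). With quantile normalization or cyclic loess 7 rose and 2 fell, and with voom 6 and 3. Ppargc1a, the coactivator PGC-1alpha that raises mitochondrial gene expression in muscle, was at 8.40, 8.65, 8.80 and 8.80 in the controls and 6.38, 6.05, 6.63 and 6.73 after knockdown. Its fold change was -2.22 ± 0.16 (limma adjusted p = 3.07e-10), larger in size than that of any tested subunit, and the groups were far apart. Ppara fell by 1.63 ± 0.25 and Tfb1m, a mitochondrial RNA methyltransferase gene, by 0.24 ± 0.10, the last not called with quantile normalization. Esrra, the oestrogen-related receptor alpha, was at 10.74, 10.74, 10.64 and 10.79 against 11.04, 11.13, 11.01 and 11.17 (0.36 ± 0.05). Gabpa was at 12.63, 12.66, 12.67 and 12.57 against 12.92, 12.90, 12.92 and 12.90 (0.28 ± 0.03), and the PGC-1 related coactivator gene Pprc1 rose by 0.21 ± 0.03. The Esrra, Gabpa and Pprc1 groups were separate and all 3 stayed called higher with quantile normalization.

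Overlapping genes limit some of these values, since the strand setting of the counting is not given in the sources used here. Of the tested subunits, 27 share exonic sequence with another gene, of which 8 rose (29.63%) and 6 fell (22.22%). Of the 49 that do not, 8 rose (16.33%) and 16 fell (32.65%). Among all genes tested 30.8% rose and 29.6% fell, and among those with a level above 9, 41.9% and 25.2%. With quantile normalization or cyclic loess 0 of the 27 rose and 9 fell, and 5 and 27 of the 49. With voom the counts were 2 and 10, and 5 and 29. Of all genes, 28.8% rose and 27.6% fell with quantile normalization, and 22.5% and 37.7% with voom. Whether the overlap had a part in these counts was not tested.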

How the data were processed

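RNA from 8 libraries of C2C12 cells was sequenced (NovaSeq, strand-specific NEBNext kit, per the labels' protocols). The submitters' processing notes list the build mm10 and the tools HTSeq 0.13.5, DESeq2, SAMtools 1.1 and bcl2fastq 2.20, without roles. Aligner, annotation and strand setting: not given in the sources used here. The values the authors deposited are log2(x + 1) of size-factor-normalized read counts, rounded to 3 decimals, as read from the values: all low values were whole multiples of 1 read within a tolerance of 0.1. All 8 columns were used, and recovered reads gave depth, read ranges and the voom fit.

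Genes with a mean log2 value above 3 were fitted with limma 3.58.1 in R 4.3.3 (eBayes with an intensity trend, no covariates), two-sided, with Benjamini-Hochberg adjustment over 14703 genes and a threshold of 0.05. Isoform ratios were compared by exact permutation tests over all 70 assignments of 8 libraries. Tables and figures used Python 3.11.15, NumPy 2.4.6, pandas 2.3.3, SciPy 1.17.1 and matplotlib 3.10.9. On simulated counts the fit recovered 6% of 50 genes changed by 0.1 log2 and 72% of 50 changed by 0.25. It recovered 100% of those changed by 0.5 or 1. It called 146 of 15066 genes there, a far smaller share than in the real data. The same dispersion was set for every simulated gene and was not estimated from the real data. Recovery in the real data may thus be higher or lower. A small change that was not called may thus have been missed. Coordinates and promoters are from RefSeq on GRCm38.p6, which mm10 names, and exons and lengths (median-length principal transcript) from GENCODE release 21 for the mouse. Members and lists were chosen with earlier results of these data known. Genes were named by rule: all of complex II, isoform pairs, core subunits, the 4 lowest adjusted p per complex and direction, genes below the filter, and the 3 lowest per related list and direction. Alternatives were the filter, offset, scaling, variance prior, library weights, replicate block, threshold and leaving out each library. Counting Ndufa4 with complex I was added after seeing the data. Some genes that the naming rule covers are not reported here.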

Additional observations from a re-analysis of the deposited data

Results flagged for a closer look

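In 10 of 166 groups of 4 libraries, 1 library lay so far from the others that its gap to the nearest of them passed Dixon's 95% critical value. Chance alone gives about 1 in 20. Among the Atad2 libraries, replicate 3 was the low one for Atp5a1 (15.109 against 15.142 to 15.146), Cox6b1 (12.884 against 12.940 to 12.941) and Ndufb5 (11.512 against 11.646 to 11.658), and replicate 4 for Atp5c1 (13.264 against 13.310 to 13.318). Among the controls, replicate 3 was the low one for Atp5b (16.357 against 16.428 to 16.437), Cox8a (12.778 against 12.836 to 12.844) and Uqcr11 (11.167 against 11.351 to 11.371). Control replicate 4 was the high one for Cox6c (12.367 against 12.248 to 12.262), Cox7a2l (12.438 against 12.289 to 12.291) and Ndufa7 (12.106 against 11.954 to 11.973). All values are log2(normalized count + 1). The subunits as a whole were also lowest in replicate 3 of each group: the mean over 76 subunits, relative to the control mean, was -0.06 in control replicate 3 and -0.09 in Atad2 replicate 3, against 0.01 to 0.04 and -0.04 to -0.03 in the others.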

How the results depend on the processing

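Under quantile normalization, cyclic loess and limma-voom on recovered reads, the members called higher numbered 5, 5 and 7 and those called lower 36, 37 and 40. The same settings moved the median log2 fold change to -0.096, -0.097 and -0.105 in complex I, to -0.015, -0.0099 and 0.015 in complex II, to -0.072, -0.062 and -0.053 in complex III, to -0.154, -0.154 and -0.133 in complex IV and to -0.085, -0.091 and -0.084 in complex V. The complex IV median was -0.208 with no filter, since weak isoforms then enter, and -0.126 with Ndufa4 counted in complex I. Among the genes named, the direction reversed with a call on at least one of both scales for Atp5g1 (-0.014 and -0.0044 with quantile and loess), Uqcrc2 (-0.016 and -0.012) and Sdhc (-0.096, -0.097 and -0.077 with voom). Other genes changed sign with no call on either scale, such as Sdha, Ndufv1 and Atp5c1. The cause was not tested. A 2-fold minimum left 0 members in each direction, and 370 and 1266 of all genes. Leaving out 1 library gave 13 to 17 higher and 19 to 26 lower members, and kept 13 of the 16 rises and 19 of the 23 falls each time; all genes numbered 4254 to 4573 higher and 4039 to 4401 lower. Complex medians then ranged from -0.058 to -0.00325 (I), 0.081 to 0.111 (II), 0.0068 to 0.044 (III), -0.068 to -0.039 (IV) and -0.039 to 0.017 (V). The ratio of Atp5g1 to Atp5g3 differed by -0.158 to -0.123, where 4 against 3 libraries cannot give an exact p below 0.0571. Over all genes tested, same-numbered libraries did not deviate together (r = 0.034, -0.023, 0.021 and 0.011), so the numbers were not taken as pairs. The mean over the 76 subunits was nevertheless lowest in replicate 3 of each group (-0.06 and -0.09). With the replicate block 17 members rose and 23 fell, and the Atp5g1 to Atp5g3 difference was -0.143 with an exact p of 0.125, the smallest that 4 pairs allow. The filter, offset, median centring, variance prior and library weights kept both counts within 1.5 times the reported ones. Depth limits the tissue isoforms, which had at most 41 reads in a library.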
